A study of Homo sapiens with 7 samples.

Results

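The 10 genes described here encode enzymes of branched-chain amino acid breakdown, and they are 10 of the 16527 gene rows in the comparison table that the authors deposited for AXL knockout and parental PC9 cells. In pathway order they are BCAT1 and BCAT2, BCKDHA, BCKDHB, DBT and BCKDK, IVD, MCCC1 and MCCC2, and HIBCH. The members were chosen by a rule that knew the fold changes and adjusted p-values of this same contrast, so the values of the members are given as a description and no test of the set was made. All 10 rows carry a test in the authors' table.

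PC9 is an established human lung adenocarcinoma line, and AXL is a receptor tyrosine kinase. PC9 cells with AXL knocked out were sequenced as 4 libraries from 2 clones with 2 libraries each. They were set against parental PC9 cells, sequenced as 3 libraries. No drug treatment is given for any library in the labels. Each clone descends from 1 sorted cell, and the clone names of the series' design do not map onto the clone numbers of the samples. Nothing in the labels states separate cultures for the replicates, so p-values cover only the variation among these 7 libraries, which may be technical. Effects of the knockout and traits of a founding cell cannot be told apart in this design.

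Leucine, isoleucine and valine are broken down by a shared start and separate ends. A branched-chain aminotransferase, BCAT1 in the cytosol or BCAT2 in mitochondria, moves the amino group to 2-oxoglutarate and so makes glutamate and a branched-chain keto acid. The mitochondrial branched-chain keto acid dehydrogenase complex (BCKDH) then commits the carbon skeleton to oxidation and is switched off when its kinase BCKDK phosphorylates it. After this step leucine carbon runs through IVD and the MCCC1 and MCCC2 carboxylase toward acetyl-CoA and ketone bodies, while valine carbon runs through HIBCH and isoleucine carbon through its own enzymes, and both can end at succinyl-CoA. BCAT1 is known for being expressed in few adult tissues and in many tumours, whereas BCAT2 is expressed widely.

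The members BCAT1 and BCKDHB passed an adjusted p of 0.05, and for each of them a promoter window around an annotated transcript start is shown here. The windows come from RefSeq on build GRCh38.p14, span 300 bases from 250 before to 50 after an annotated transcript start, and read 5′ to 3′ on the gene's strand. Capitals mark CACGTG, the E-box that MYC and other basic helix-loop-helix factors are known to bind. The BCAT1 window is the first of 5 listed for the gene and covers chr12:24949052-24949351 on the minus strand, and the BCKDHB window covers chr6:80106421-80106720 on the plus strand.
BCAT1: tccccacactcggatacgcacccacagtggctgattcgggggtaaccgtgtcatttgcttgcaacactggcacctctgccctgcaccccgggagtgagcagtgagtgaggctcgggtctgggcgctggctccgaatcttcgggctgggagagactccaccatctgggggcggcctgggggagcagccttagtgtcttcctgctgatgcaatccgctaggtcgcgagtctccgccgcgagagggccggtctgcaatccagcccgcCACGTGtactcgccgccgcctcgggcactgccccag
BCKDHB: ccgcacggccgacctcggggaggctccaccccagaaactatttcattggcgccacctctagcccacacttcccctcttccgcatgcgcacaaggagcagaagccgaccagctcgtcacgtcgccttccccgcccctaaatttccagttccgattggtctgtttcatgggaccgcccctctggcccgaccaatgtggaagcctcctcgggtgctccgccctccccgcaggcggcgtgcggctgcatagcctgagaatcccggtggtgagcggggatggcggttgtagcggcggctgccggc

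The BCAT1 window held 23 CpG dinucleotides and the BCKDHB window 27, against a median of 14 over all 35116 windows in the table. The first listed windows of members not called held 30 (HIBCH), 28 (BCKDK), 25 (MCCC2), 23 (IVD), 19 (MCCC1), 14 (DBT) and 13 (BCKDHA). CACGTG, searched on both strands, occurred 1 time in the BCAT1 window and 0 times in the BCKDHB window, and 7.26% of all windows held it. GGGCGG, the core of the GC box that SP1 is known to bind, occurred 1 time in the BCAT1 window and 3 times in the BCKDHB window, and 45.0% of all windows held it. Windows were found for 9 of the 10 members, all but BCAT2. Of these 9, the first listed windows of BCAT1, MCCC1 and MCCC2 held CACGTG. Over all listed windows, 1 of 5 held it for BCAT1, 2 of 3 for MCCC1 and 1 of 1 for MCCC2. MCCC1 and MCCC2 were not called. Whether the motif bears on the level of any member was not tested.

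RNA was measured by bulk MARS-seq, which tags the 3′ ends of polyadenylated transcripts. The authors' table gives, for each gene, the mean over the 7 libraries of DESeq2-normalized counts, a log2 fold change (positive when higher in knockout), its standard error and an adjusted p. Adjusted p-values are those of the authors' DESeq2 Wald test with Benjamini-Hochberg adjustment over 16522 rows, and a gene is called when its adjusted p is under 0.05. The value of each library was read back from the table as whole reads, as described under processing, and is given as a normalized count, which is the reads divided by the size factor of the library. The libraries of each group are numbered by falling size factor, and these numbers were not matched to the clones or to the replicate numbers of the labels. The deposited means sum to 12209504 counts, and the size factors spanned 0.938 to 1.04 in knockout libraries and 1.01 to 1.06 in parental libraries. In bulk RNA, fewer cells expressing a gene and less RNA per cell cannot be told apart.

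AXL served as the check of the group labels. It had 23.0, 15.0, 11.4 and 23.5 normalized counts in the knockout libraries, against 1387, 1448 and 1415 in the parental libraries. Every knockout library lay far below every parental library, with a log2 fold change of -6.28 ± 0.18 (standard error) and an adjusted p of 1.15e-255 in the authors' deposited table. The 6 epithelial markers EPCAM, KRT8, KRT18, KRT7, CDH1 and EGFR all had rows, and they did not move one way, with 2 called higher, 2 called lower and a median log2 fold change of -0.04 in the authors' deposited table. The keratin genes KRT8 and KRT18 were higher (1.04 ± 0.04, adjusted p = 2.37e-159 and 0.72 ± 0.04, adjusted p = 1.01e-72), CDH1 and EGFR were lower (-0.33 ± 0.06, adjusted p = 1.19e-07 and -0.21 ± 0.06, adjusted p = 0.00103), and EPCAM and KRT7 were not called (-0.03 ± 0.04, adjusted p = 0.635 and -0.06 ± 0.04, adjusted p = 0.313), all in the authors' deposited table. Their summed level was 134004 normalized counts in knockout and 100266 in parental cells as computed from that table, and KRT8 and KRT18 were its only members with a higher level in knockout cells. The leukocyte markers had no value to analyse here, 1 of 5 fibroblast markers had a row (COL1A1, 84.0 in knockout and 126 in parental), and of the 3 endothelial markers PECAM1 was at 1777 in knockout and 351 in parental, CDH5 at 305 in knockout and 455 in parental, and VWF at 4.87 in knockout and 0.976 in parental. PECAM1 was called higher (2.34 ± 0.07, adjusted p = 1.17e-249) and COL1A1 lower (-0.59 ± 0.17, adjusted p = 0.00235) in the authors' deposited table. CDH5 and VWF were not called (-0.57 ± 0.25, adjusted p = 0.0507 and 2.32 ± 1.10, adjusted p = 0.0852) in the same table. The part of all these marker genes in the results below was not tested.

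Of the 10 members, 2 were called, 1 higher in knockout libraries (BCKDHB) and 1 lower (BCAT1). Over all tested rows, 38.0% were called, 19.5% as higher and 18.5% as lower. Among the 10025 rows whose mean lay between the lowest and the highest member mean, 47.2% were called, 25.4% as higher and 21.8% as lower. Because the contrast chose the set, nothing is read from the member count beyond these figures. The median log2 fold change was 0.08 over the members and -0.01 over all tested rows, and the median absolute log2 fold change was 0.11 over the members, 0.28 over all tested rows and 0.21 over rows in the members' range of means. The library values did not overlap between groups for BCAT1, BCKDHB and MCCC2, and did overlap for the other 7 members. Reads were read back for 114 genes only, so the share of all genes without overlap is not known. Nothing is read from the number of members without overlap. The coefficient of variation of the 10 members ran from 3.59% to 86.4% among knockout libraries, the top value being that of BCAT1 at its few reads, and from 1.91% to 11.5% among parental libraries.

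**Figure D1:**
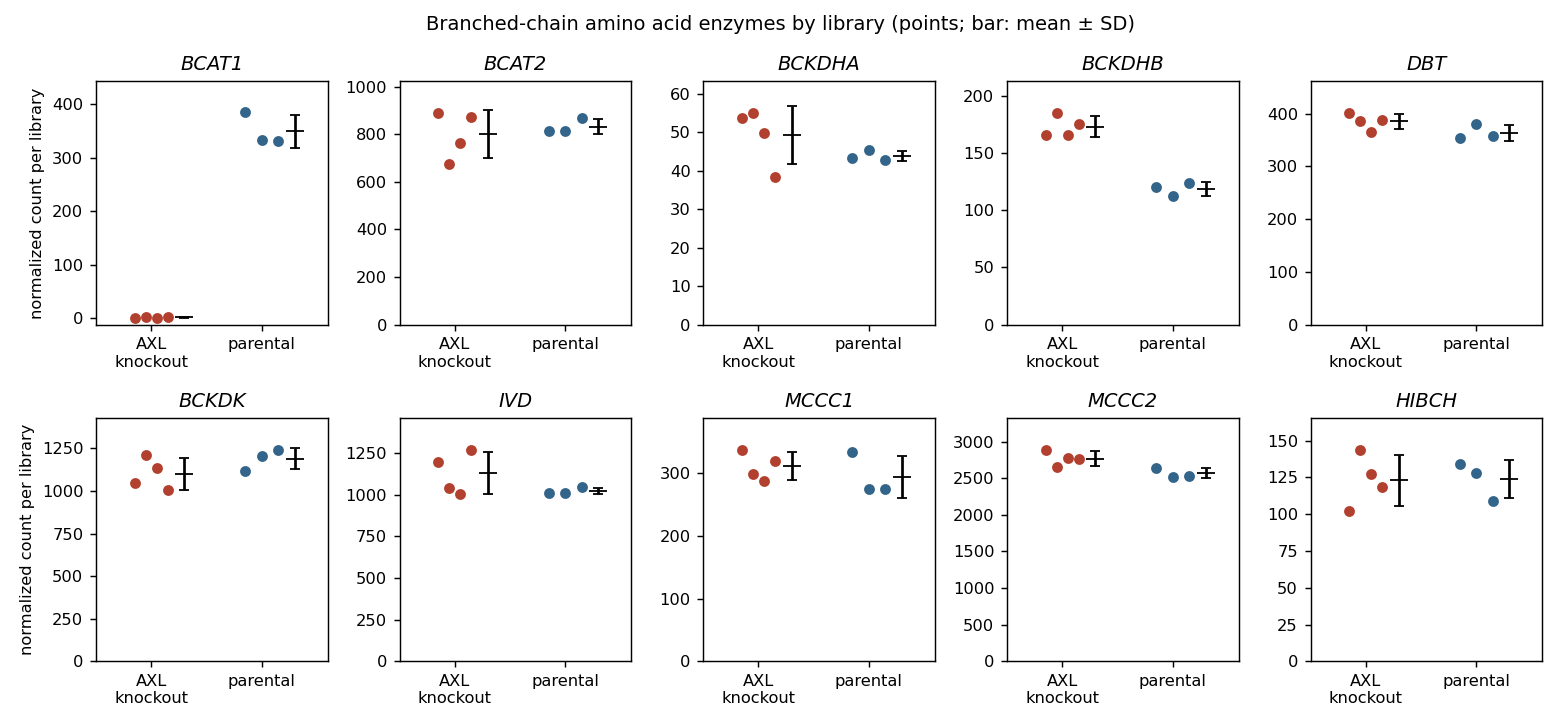
Normalized counts of the 10 enzymes in each library (vertical axes, a separate linear scale per gene), with AXL knockout libraries in red on the left and parental libraries in blue on the right, and a black bar for the mean ± SD (n = 4 and n = 3). The knockout points of BCAT1 lie at 0 to 3.0 counts, far under its parental points, those of BCKDHB lie above its parental points, and the MCCC2 groups are separated by a narrow gap.

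The first step of the pathway held the member with the widest difference. BCAT1 (ENSG00000060982; chromosome 12, 24810022 to 24949459, minus strand), the cytosolic aminotransferase, gave 1, 3, 0 and 2 reads in the 4 knockout libraries, against 410, 338 and 333 reads in the 3 parental libraries. These reads correspond to 0.958, 3.00, 0 and 2.13 normalized counts in the knockout libraries, against 385, 333 and 331 in the parental libraries. BCAT1 RNA was thus near the limit of detection in every knockout library and well measured in every parental library, and a library with 0 reads still allows up to 3 reads.

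BCAT1 averaged 1.52 ± 1.32 normalized counts in knockout libraries (SD, n = 4) and 349.6 ± 31.0 in parental libraries (SD, n = 3). It carried a log2 fold change of -7.85 ± 0.60 (standard error) and an adjusted p of 2.44e-37 in the authors' deposited table, with a 95% interval of -9.02 to -6.67. That fold change is 230-fold lower in knockout cells in the authors' deposited table, a size that rests on 6 reads over the knockout libraries and 1081 over the parental ones. All 4 knockout libraries, and so those of each clone, were at 3 reads or fewer. Whether reads were collapsed by molecular identifiers is not given in the sources used here, so the limit of 3 reads covers counting error only.

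BCAT2 (ENSG00000105552; chromosome 19, 48795062 to 48811029, minus strand), the mitochondrial aminotransferase, catalyses the same reaction. It had 889.8, 675, 762 and 872 normalized counts in the knockout libraries, against 813, 815 and 867 in the parental libraries. The knockout libraries lay on either side of the parental ones, with library 2 lowest and library 1 highest. BCAT2 averaged 799.7 ± 101 normalized counts in knockout libraries (SD, n = 4) and 832 ± 30.6 in parental libraries (SD, n = 3), and it was not called, with a log2 fold change of -0.06 ± 0.09 (standard error) and an adjusted p of 0.662 in the authors' deposited table. Its 95% interval ran from -0.23 to 0.11 on the log2 scale.

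The committing step is run by the BCKDH complex, whose E1 component is built from BCKDHA and BCKDHB. BCKDHB (ENSG00000083123; chromosome 6, 80106647 to 80346270, plus strand), the E1 beta subunit, had 166, 185, 166 and 175 normalized counts in the knockout libraries, against 120.3, 112 and 124 in the parental libraries. Each of the 4 knockout libraries lay above each of the 3 parental libraries. The gene averaged 173 ± 9.11 normalized counts in knockout libraries (SD, n = 4) and 119 ± 6.09 in parental libraries (SD, n = 3), and it was called, with a log2 fold change of 0.54 ± 0.14 (standard error) and an adjusted p of 3.13e-04 in the authors' deposited table. That fold change is 1.45-fold higher in knockout libraries, with a 95% interval of 0.28 to 0.81 on the log2 scale.

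BCKDHA (ENSG00000248098; chromosome 19, 41397460 to 41425005, plus strand), the E1 alpha subunit that carries the regulatory phosphorylation sites, had 53.6, 55.0, 49.8 and 38.4 normalized counts in the knockout libraries, against 43.2, 45.3 and 42.7 in the parental libraries. Knockout libraries 1 to 3 lay above the parental libraries and library 4 lay below them, so the groups overlapped. It was not called, with a log2 fold change of 0.17 ± 0.23 (standard error) and an adjusted p of 0.620 in the authors' deposited table. Its mean of 46.9 counts was the lowest of the 10 members, and its 95% interval of -0.29 to 0.63 takes in the fold change of BCKDHB.

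BCKDHA lies on the same chromosome as AXL, 135694 bases beyond its end, with 5 measured genes between them. Of these genes HNRNPUL1 had a log2 fold change of 0.14 ± 0.04, adjusted p = 0.00606 and TGFB1, which encodes a secreted growth factor, of -0.45 ± 0.07, adjusted p = 8.18e-10 in the authors' deposited table, and CCDC97, TMEM91 and B9D2 were not called. In GENCODE 29, exons of BCKDHA overlap EXOSC5 on the opposite strand and the readthrough gene AC011462.1 on its own strand. Whether the authors counted by strand is not given in the sources used here, so the BCKDHA count may hold or lack reads of these genes. EXOSC5 itself was not called, at a log2 fold change of 0.00 with an adjusted p of 0.985 in the authors' deposited table.

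DBT (ENSG00000137992; chromosome 1, 100186919 to 100249834, minus strand), the E2 core of the complex that passes the acyl group to coenzyme A, had 401, 386, 365 and 387 normalized counts in the knockout libraries, against 353, 381 and 357 in the parental libraries. The groups overlapped narrowly, and DBT was not called, with a log2 fold change of 0.08 ± 0.09 (standard error) and an adjusted p of 0.514 in the authors' deposited table. BCKDK (ENSG00000103507; chromosome 16, 31106107 to 31112791, plus strand), the kinase that inactivates the complex, had 1045, 1211, 1136 and 1005 normalized counts in the knockout libraries, against 1120.2, 1206 and 1243 in the parental libraries. Knockout libraries 1 and 4 lay below all parental libraries and libraries 2 and 3 lay among them, and BCKDK was not called, with a log2 fold change of -0.11 ± 0.07 (standard error) and an adjusted p of 0.214 in the authors' deposited table.

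The next members act on leucine carbon. IVD (ENSG00000128928; chromosome 15, 40405795 to 40435947, plus strand), the flavoprotein that oxidizes isovaleryl-CoA, had 1193, 1041, 1003 and 1270.2 normalized counts in the knockout libraries, against 1008, 1012 and 1044 in the parental libraries. Knockout libraries 1 and 4 exceeded every parental library while library 2 lay within the parental range and library 3 just under it. IVD averaged 1127 ± 126 normalized counts in knockout libraries (SD, n = 4) and 1021 ± 19.5 in parental libraries (SD, n = 3) and was not called, with a log2 fold change of 0.14 ± 0.08 (standard error) and an adjusted p of 0.142 in the authors' deposited table.

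MCCC1 and MCCC2 encode the subunits of methylcrotonyl-CoA carboxylase, a biotin enzyme, with the biotin carried on the MCCC1 product. MCCC1 (ENSG00000078070; chromosome 3, 183015218 to 183116075, minus strand) had 337, 298, 287 and 319 normalized counts in the knockout libraries, against 333, 275 and 274 in the parental libraries. Parental library 1 stood above the other parental libraries, the groups overlapped, and MCCC1 was not called, with a log2 fold change of 0.08 ± 0.11 (standard error) and an adjusted p of 0.615 in the authors' deposited table. MCCC2 (ENSG00000131844; chromosome 5, 71587288 to 71658704, plus strand) had 2891, 2649, 2774 and 2757 normalized counts in the knockout libraries, against 2643, 2519 and 2535 in the parental libraries. Every knockout library exceeded every parental library, the smallest gap being 2649 in knockout library 2 and 2643 in parental library 1.

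MCCC2 averaged 2768 ± 99.3 normalized counts in knockout libraries (SD, n = 4) and 2566 ± 67.3 in parental libraries (SD, n = 3). It missed the threshold after adjustment, with a log2 fold change of 0.11 ± 0.05 (standard error) and an adjusted p of 0.0750 in the authors' deposited table, and its unadjusted p was 0.0305 in the same table. Its 95% interval of 0.01 to 0.21 on the log2 scale lay above 0. The MCCC1 interval of -0.13 to 0.28 takes in that of MCCC2.

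HIBCH (ENSG00000198130; chromosome 2, 190189735 to 190344193, minus strand), which releases free 3-hydroxyisobutyrate from its CoA ester in valine breakdown, had 102, 144, 128 and 118 normalized counts in the knockout libraries, against 134, 128 and 109 in the parental libraries. Its groups overlapped over most of their range, and it was not called, with a log2 fold change of -0.01 ± 0.15 (standard error) and an adjusted p of 0.970 in the authors' deposited table. HIBCH exons overlap those of INPP1 on the opposite strand in GENCODE 29, and INPP1, an inositol phosphate phosphatase gene with a mean of 45.5 counts, was lower in knockout libraries, at a log2 fold change of -1.28 with an adjusted p of 1.12e-06 in the authors' deposited table. Without stated strand use, reads of the shared exons cannot be told apart. Exons of BCAT1, DBT and MCCC1 also overlap annotated genes on the opposite strand, which were not analysed here.

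**Figure D2:**
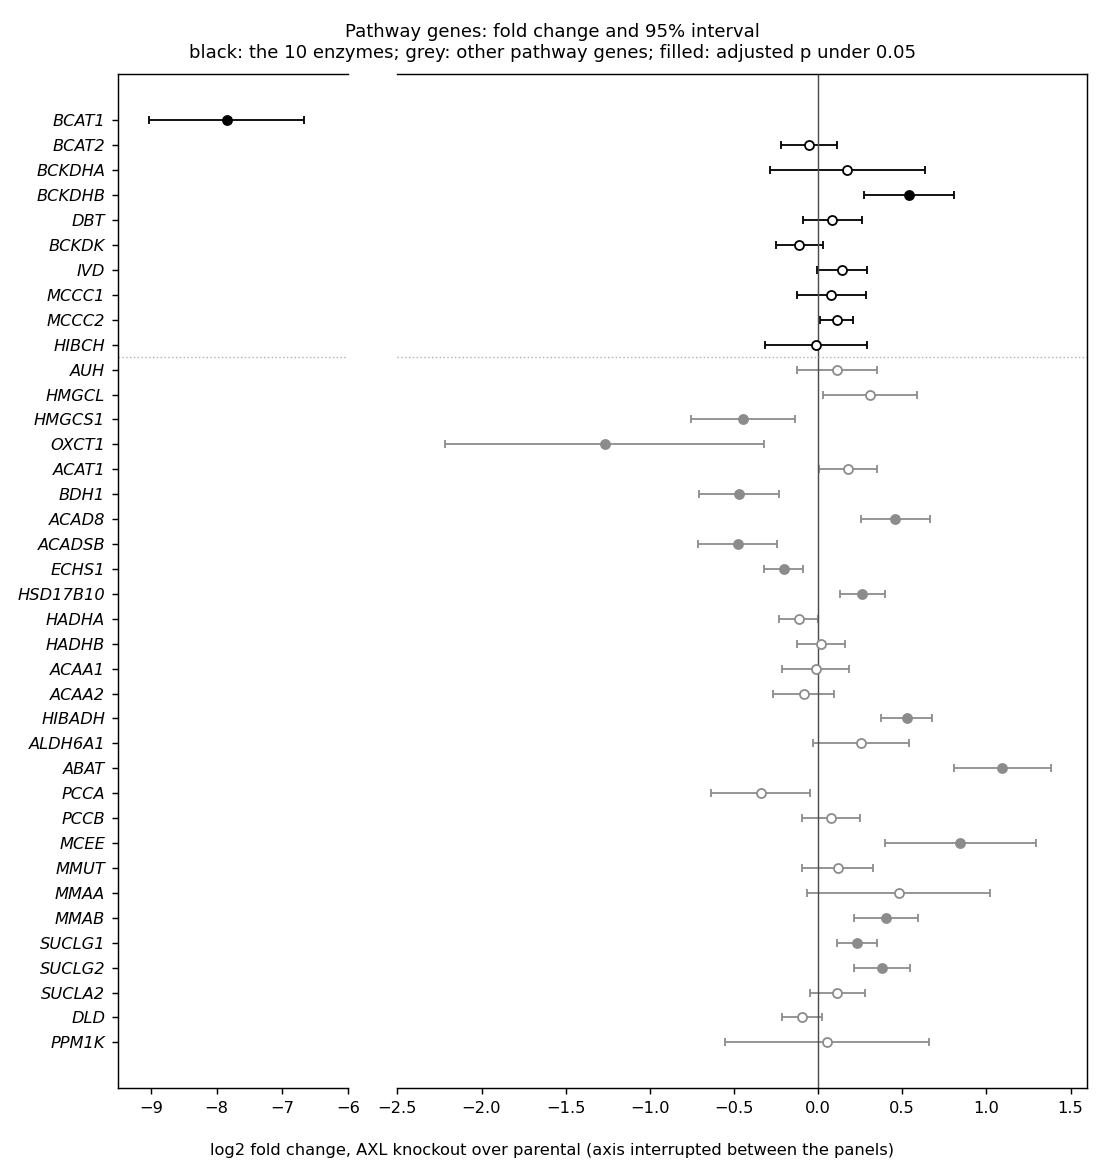
Log2 fold changes, AXL knockout over parental, in the authors' deposited table (horizontal axis, interrupted between the panels), with 95% intervals from the deposited standard errors. The 10 enzymes are in black and 28 further pathway genes in grey, in pathway order from the top, and filled points passed an adjusted p of 0.05. BCAT1 at -7.85 stands alone in the left panel, and 7 of the other 9 enzymes have intervals that cross 0.

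The further genes of the pathway were taken by role, with earlier results of these data known. Of the 28 with a row, 8 were called higher and 5 lower in knockout libraries and 15 were not called, with a median log2 fold change of 0.11. The share called was 46.4%, beside 38.0% of all rows and 47.2% of rows in the members' range of means. The genes of each branch follow, with library values as means ± SD of normalized counts (n = 4 knockout and n = 3 parental libraries) and fold changes on the log2 scale with the adjusted p from the authors' deposited table. Means are given as knockout against parental. Where the reads of a gene were not read back, a computed level of each group, from the mean and the fold change of that table and without an error, stands in their place.

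In the leucine branch after the carboxylase, 0 of 6 genes were called higher and 3 lower. BDH1, which interconverts the ketone bodies, had 316, 209, 257 and 292 normalized counts in the knockout libraries, against 319, 402 and 397 in the parental libraries, so that knockout library 1 came close to parental library 1, and its fold change was -0.47 ± 0.12, adjusted p = 5.67e-04 in the authors' deposited table. HMGCS1, which makes HMG-CoA in the cytosol for sterol synthesis, averaged 1086 in knockout against 1479 in parental cells as a computed level, with a fold change in the authors' deposited table of -0.45 ± 0.16, adjusted p = 0.0149. OXCT1, which activates acetoacetate, was named after its values were seen because its mean is under 20 counts, and its fold change was -1.27 ± 0.48, adjusted p = 0.0254 in the authors' deposited table. AUH, the enzyme after the carboxylase, and ACAT1, the acetoacetyl-CoA thiolase, were not called, at 0.11 ± 0.12, adjusted p = 0.513 and 0.18 ± 0.09, adjusted p = 0.105 in the authors' deposited table.

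In the valine and isoleucine branches, 4 of 11 genes were called higher and 2 lower. HIBADH, which acts on the product of HIBCH, had 633, 661, 679 and 709 normalized counts in the knockout libraries, against 457, 466 and 473 in the parental libraries. The libraries did not overlap, and the fold change was 0.53 ± 0.08, adjusted p = 8.69e-11 in the authors' deposited table. ABAT, best known as the transaminase of GABA, had 228, 200.0, 194 and 264 normalized counts in the knockout libraries, against 103, 88.6 and 119 in the parental libraries, with a fold change of 1.10 ± 0.15, adjusted p = 9.77e-13 in the authors' deposited table.

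Of the acyl-CoA dehydrogenases of these branches, ACAD8 was called higher and ACADSB lower. ACAD8, isobutyryl-CoA dehydrogenase of the valine branch, averaged 293 ± 11.7 against 214 ± 7.01, with 0.46 ± 0.11, adjusted p = 7.17e-05 in the authors' deposited table. ACADSB, the short and branched chain dehydrogenase of the isoleucine branch, averaged 182 ± 22.9 against 253 ± 7.09, with -0.48 ± 0.12, adjusted p = 2.87e-04 in the authors' deposited table. Neither gene's libraries overlapped between groups.

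HSD17B10, the dehydrogenase of the isoleucine branch that is also a subunit of mitochondrial RNase P, averaged 958 ± 52.1 against 799 ± 34.8, with 0.26 ± 0.07, adjusted p = 6.18e-04 in the authors' deposited table. ECHS1, the crotonase shared by these branches and fatty acid oxidation, averaged 1588 in knockout against 1831 in parental cells as a computed level, with -0.20 ± 0.06, adjusted p = 0.0019 in the authors' deposited table. The trifunctional protein genes HADHA and HADHB were not called, at -0.12 ± 0.06, adjusted p = 0.108 and 0.02 ± 0.07, adjusted p = 0.892 in the authors' deposited table.

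From propionyl-CoA to succinyl-CoA, 4 of 9 genes were called higher and 0 lower. MCEE, methylmalonyl-CoA epimerase, averaged 68.7 ± 10.5 against 38.1 ± 7.65, with 0.85 ± 0.23, adjusted p = 0.00101 in the authors' deposited table. MMAB, which makes adenosylcobalamin for the mutase, averaged 363 ± 20.4 against 275 ± 15.1, with 0.40 ± 0.10, adjusted p = 1.75e-04 in the authors' deposited table. The succinyl-CoA ligase genes SUCLG2 and SUCLG1 had fold changes of 0.38 ± 0.09, adjusted p = 5.15e-05 and 0.23 ± 0.06, adjusted p = 5.71e-04 in the authors' deposited table, and SUCLA2, the ATP-forming beta subunit, was not called, at 0.11 ± 0.08, adjusted p = 0.292. PCCB, a subunit of propionyl-CoA carboxylase, was not called either, at 0.08 ± 0.09, adjusted p = 0.547 in the authors' deposited table. Of the partners of the BCKDH complex, DLD, the E3 subunit it shares with its sister complexes, and PPM1K, its phosphatase, were not called, at -0.10 ± 0.06, adjusted p = 0.218 and 0.05 ± 0.31, adjusted p = 0.921 in the authors' deposited table, and KLF15 was not analysed here.

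The related lists around the pathway held 97 genes with a row that are not among those above. Of these, 28 were called higher and 18 lower, 47.4% in all, with a median log2 fold change of 0.03, which is near the 47.2% called among rows in the members' range of means.

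The pyruvate, 2-oxoglutarate and 2-oxoadipate dehydrogenases are built like BCKDH, and 5 of their 13 genes, kinases and phosphatases included, were called higher and 4 lower. DLAT, the E2 of pyruvate dehydrogenase and the counterpart of DBT, averaged 2587 in knockout against 1684 in parental cells as a computed level, with 0.62 ± 0.05, adjusted p = 2.53e-32 in the authors' deposited table. PDHB, its E1 beta and the counterpart of BCKDHB, averaged 458 ± 19.5 against 642 ± 18.5, with -0.49 ± 0.08, adjusted p = 3.27e-09 in the authors' deposited table. The E1 beta genes of the branched-chain and pyruvate complexes had called differences of opposite sign in these libraries, each without overlap of groups.

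The pyruvate dehydrogenase kinases also split. PDK1, a kinase induced by HIF-1, averaged 986 ± 132 against 1532 ± 48.0, with -0.64 ± 0.08, adjusted p = 6.90e-14 in the authors' deposited table, and PDK2 averaged 372 ± 18.2 against 242 ± 13.7, with 0.62 ± 0.10, adjusted p = 3.14e-09. DLST, the E2 of 2-oxoglutarate dehydrogenase, and DHTKD1, the E1 of the 2-oxoadipate complex, had fold changes of -0.33 ± 0.05, adjusted p = 6.00e-10 and 0.40 ± 0.09, adjusted p = 9.06e-05 in the authors' deposited table. PDHX and PDP1 were not called, at 0.11 ± 0.06, adjusted p = 0.169 and -0.16 ± 0.08, adjusted p = 0.119 in the authors' deposited table.

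For the cofactors, 4 of 10 genes were called higher and 2 lower. LIAS, the synthase that makes the lipoyl group of DBT and the other E2 proteins, had 139, 124, 139 and 146 normalized counts in the knockout libraries, against 252, 268 and 259 in the parental libraries. Each knockout library was well below each parental library, with -0.92 ± 0.12, adjusted p = 2.38e-13 in the authors' deposited table. BTD, which frees biotin for reuse, averaged 106 ± 12.2 against 181 ± 5.86, with -0.78 ± 0.14, adjusted p = 2.40e-07 in the authors' deposited table.

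SLC19A3 and SLC19A2 transport thiamine, the vitamin behind the E1 cofactor. SLC19A3 averaged 165 ± 10.3 against 83.9 ± 4.94, with 0.98 ± 0.15, adjusted p = 5.41e-10 in the authors' deposited table, and SLC19A2 had a fold change of 0.24 ± 0.10, adjusted p = 0.0467. HLCS, which attaches biotin to carboxylases such as MCCC1, had a fold change of 0.30 ± 0.11, adjusted p = 0.0218, and SLC5A6, the biotin and pantothenate transporter, one of 0.18 ± 0.06, adjusted p = 0.00553 in the authors' deposited table. LIPT1, a lipoyltransferase, was not called, at -0.33 ± 0.17, adjusted p = 0.112 in the authors' deposited table. Of the 5 other biotin carboxylase genes, 2 were called higher, ACACA at 0.25 ± 0.07, adjusted p = 0.00203 and ACACB at 0.78 ± 0.30, adjusted p = 0.0283 in the authors' deposited table, 0 were called lower, and PC was not called, at 0.28 ± 0.12, adjusted p = 0.0544.

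IVD hands its electrons to the electron transfer flavoprotein, whose list had 1 of 5 genes called higher and 0 lower. ETFB, its beta subunit, had 920.4, 867, 911 and 883 normalized counts in the knockout libraries, against 619, 526 and 573 in the parental libraries, without overlap and with 0.64 ± 0.07, adjusted p = 3.05e-17 in the authors' deposited table. ETFA, the alpha subunit, and ETFDH, which passes the electrons to ubiquinone, were not called, at 0.08 ± 0.06, adjusted p = 0.357 and -0.15 ± 0.21, adjusted p = 0.647 in the authors' deposited table. Of the 8 measured relatives of IVD in the acyl-CoA dehydrogenase family, 3 were called higher and 2 lower. ACADS averaged 114 ± 9.28 against 66.5 ± 5.54, with 0.78 ± 0.17, adjusted p = 3.56e-05, and ACADVL averaged 3155 in knockout against 5068 in parental cells as a computed level, with -0.68 ± 0.06, adjusted p = 6.76e-25 in the authors' deposited table. ACAD9 had a fold change of 0.20 ± 0.07, adjusted p = 0.0120, and ACADM and GCDH were not called, at -0.10 ± 0.07, adjusted p = 0.295 and -0.03 ± 0.09, adjusted p = 0.855 in the authors' deposited table.

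Transport of branched-chain amino acids had 1 of 9 genes called higher and 2 lower. SLC7A5 and SLC3A2, the light and heavy chains of the large neutral amino acid exchanger LAT1, had levels of 5499 in knockout against 7113 in parental cells as a computed level for SLC7A5 and 2675 in knockout against 3468 in parental cells as a computed level for SLC3A2. The fold changes of the pair were -0.37 ± 0.04, adjusted p = 1.15e-17 and -0.37 ± 0.05, adjusted p = 4.37e-14 in the authors' deposited table. SLC43A2, a facilitative transporter of large neutral amino acids, averaged 87.3 ± 12.5 against 57.8 ± 8.19, with 0.60 ± 0.20, adjusted p = 0.00803 in the authors' deposited table. SLC7A6 and SLC25A44, the mitochondrial carrier of branched-chain amino acids, were not called, at 0.20 ± 0.10, adjusted p = 0.0886 and 0.04 ± 0.08, adjusted p = 0.734 in the authors' deposited table.

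Among 15 genes of glutamate metabolism and the other transaminases, 3 were called higher and 2 lower. GLUL, glutamine synthetase, averaged 1922 in knockout against 1251 in parental cells as a computed level, with 0.62 ± 0.08, adjusted p = 2.94e-15 in the authors' deposited table. GLUD1, glutamate dehydrogenase, had a fold change of -0.24 ± 0.06, adjusted p = 1.13e-04, OAT of 0.22 ± 0.07, adjusted p = 0.00334 and KYAT3 of 0.30 ± 0.10, adjusted p = 0.00853 in the authors' deposited table. The transaminase genes GOT2 and PSAT1 were not called, at -0.07 ± 0.05, adjusted p = 0.275 and -0.02 ± 0.06, adjusted p = 0.793 in the authors' deposited table.

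Of 28 genes through which leucine and other amino acids are sensed at mTORC1, 7 were called higher and 6 lower. The leucine-binding sestrins SESN1 and SESN2 had differences of opposite sign. SESN1 averaged 167 ± 13.8 against 95.7 ± 9.03, with 0.81 ± 0.15, adjusted p = 2.64e-07, and SESN2 averaged 156 ± 24.4 against 234 ± 12.5, with -0.58 ± 0.13, adjusted p = 4.02e-05 in the authors' deposited table. The Ragulator genes LAMTOR4, LAMTOR2 and LAMTOR5 had fold changes of 0.46 ± 0.10, adjusted p = 1.59e-05, 0.37 ± 0.10, adjusted p = 5.92e-04 and 0.23 ± 0.06, adjusted p = 0.00194, and SEC13 of -0.53 ± 0.06, adjusted p = 1.71e-18 in the authors' deposited table. LAMTOR1 and MLST8 were not called, at -0.08 ± 0.06, adjusted p = 0.316 and 0.03 ± 0.06, adjusted p = 0.719 in the authors' deposited table.

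A list of 8 genes reported as regulators of BCAT1 in other systems had 3 called higher and 1 lower. MYC averaged 5761 in knockout against 6071 in parental cells as a computed level and was not called, at -0.08 ± 0.05, adjusted p = 0.204 in the authors' deposited table, and ATF4 was not called, at 0.03 ± 0.07, adjusted p = 0.793. HIF1A had a fold change of -0.26 ± 0.04, adjusted p = 6.67e-09 and EZH2, a histone methyltransferase, of 0.18 ± 0.06, adjusted p = 0.0119 in the authors' deposited table. SP1 had one of 0.39 ± 0.06, adjusted p = 1.40e-08 and MSI2, an RNA-binding protein, of 0.56 ± 0.10, adjusted p = 3.63e-08. The absolute fold changes in this list reached 0.56 on the log2 scale. These are RNA levels only, and the part of these genes in the level of BCAT1 was not tested.

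**Figure D3:**
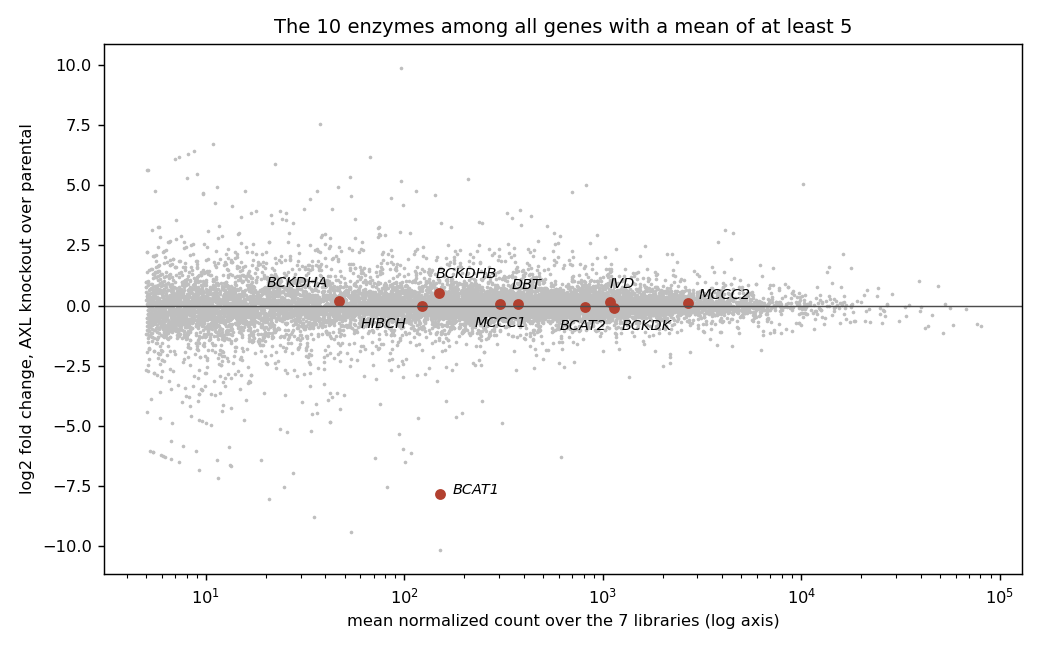
Log2 fold change, AXL knockout over parental (vertical axis), against the mean normalized count over the 7 libraries (horizontal log axis) for every gene of the authors' deposited table with a mean of at least 5, with the 10 enzymes in red. BCAT1 at -7.85 lies at the lower edge of the cloud, and the other 9 enzymes lie between -0.11 and 0.54.

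Among the 12153 rows with a mean of at least 20, BCAT1 had the fifth lowest log2 fold change, counting from the most negative. The rows nearest to it, by the difference in log2 fold change over this single contrast, were HBE1, C15orf48 and CA12 below it and MSX1, PLAGL1 and ACSS3 above it. In the authors' deposited table their fold changes were -8.03 ± 1.06, -8.78 ± 1.04 and -9.40 ± 1.04, and -7.55 ± 0.74, -7.54 ± 1.05 and -6.97 ± 1.04. The knockout levels computed from that table were 0.186, 0.186 and 0.186 for the first set and 1.01, 0.307 and 0.507 for the second, so these fitted values mark genes near the floor and are no bound on a fold. Parental levels computed from the same table were 48.4, 81.6 and 126 for the first set and 189.7, 57.1 and 63.8 for the second. BCAT1, at 349.6, had the highest parental level of the 7 genes.

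On chromosome 12, of the 5 measured genes before BCAT1 on the side of lower coordinates, 0 were called higher and 1 lower. Among them, ETNK1, C2CD5 and CMAS were not called, at 0.06 ± 0.08, adjusted p = 0.623, -0.07 ± 0.10, adjusted p = 0.634 and -0.09 ± 0.06, adjusted p = 0.243 in the authors' deposited table. ST8SIA1, a ganglioside sialyltransferase gene, had 4.79, 10.0, 4.15 and 4.27 normalized counts in the knockout libraries, against 14.1, 17.7 and 11.9 in the parental libraries, with -1.32 ± 0.53, adjusted p = 0.0336 in the authors' deposited table. ENSG00000256615 averaged 0.557 counts and was not called.

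The nearest measured gene on the side of higher coordinates, ETFRF1, a regulator of the electron transfer flavoprotein, averaged 67.7 ± 9.39 against 54.7 ± 1.25 and was not called, at 0.31 ± 0.21, adjusted p = 0.248 in the authors' deposited table. The measured genes that flank BCAT1 directly, ETNK1 and ETFRF1, were thus both without a called difference.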

How the data were processed

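The data are 7 bulk MARS-seq libraries, of 4 AXL knockout and 3 parental samples. Per the labels' protocols, poly-T primers were used for reverse transcription and reads were mapped to the human genome. The submitters' processing notes list DESeq2. Aligner, annotation, build, strand use and molecular identifiers were not given in the sources used here. The table deposited by the authors has 1 row per Ensembl gene. Per the file headers its columns are a mean normalized count (a signal), the log2 fold change, the error of that log2 value, the Wald statistic (a score), and the p-value before and after adjustment. The table does not name its contrast.

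Whole reads per library were read back from the table with Python 3.11.15, numpy 2.4.6 and numba 0.67.0. The 111 lowest rows are sums of whole reads over 7 steps to within 1e-12, which gives the size factors. Of these rows, 40 have reads on 1 side only, and exactly 1 assignment of 3 and 4 steps to the signs of the fold changes gave no conflict. The side of 4 was taken as knockout, since the labels give 4 knockout and 3 parental libraries. A set of reads was accepted only when its mean and a refit of the negative binomial model with 2 groups returned the deposited fold change to within 1e-11. This succeeded for all 10 members and for 114 genes in all. Outside the members, reads were sought for genes with a mean of 5 to 1300, and those of HMGCS1 and PECAM1 were not resolved. The procedure was tested on simulated data, modelled on genes with means under those of MCCC2, BCKDK and IVD. The test therefore did not cover these members or list genes of like mean, nor list genes of low mean such as ST8SIA1 and OXCT1. The simulated fold changes were made by the same fit that reads them back, so the test did not compare that fit with the authors' tool. For MCCC2, 1866357 sets of reads gave its mean, and the next best set missed the deposited log2 fold change by 1.2e-09.

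Symbols were found for 16428 identifiers, and positions come from GENCODE 29 (GRCh38). The members and lists were chosen with earlier results of these data known. Genes named from a list are the called ones with a mean of at least 20, at most 6 by smallest p, and up to 2 that were not called, of highest mean. In addition, measured genes around BCAT1 and the 3 rows next to it in fold change in each direction were named. Some genes that these rules take are not reported here. Intervals are 95% normal intervals from the deposited standard errors. Alternatives were a threshold of 0.01, a 2-fold minimum, a mean of at least 20, the Wald statistic read against a t distribution (5 degrees of freedom), a minimum effect of 0.5 log2 units in the test, centring on the median, and leaving out each library. Levels from the reads in place of levels computed from the mean and fold change were added after the data were seen.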

Additional observations from a re-analysis of the deposited data

How the results depend on the processing

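Direction and call of all 10 members were the same at a threshold of 0.01, with a mean of at least 20, with a t distribution with 5 degrees of freedom and after centring on the median. BCAT1 was called under each of these and under both minimum sizes below. With the t distribution the adjusted p of BCKDHB was 0.0496 (deposited Wald statistic, Benjamini-Hochberg), just under the threshold. The 5 degrees of freedom treat all 7 libraries as separate units, although the knockout libraries come from 2 clones. BCKDHB, at a log2 fold change of 0.54, was not called with a 2-fold minimum, nor when the test asked for more than 0.5 log2 units (adjusted p = 1 by the deposited Wald statistics and Benjamini-Hochberg), so the members called higher were then 0. The other pathway genes called higher numbered 1 with the 2-fold minimum, 5 with the t distribution and 1 in the test against 0.5, and those called lower 3 at the threshold of 0.01, 1 with the 2-fold minimum, 1 with the t distribution and 0 against 0.5. The related genes called higher numbered 1, 11 and 1 under the 2-fold minimum, the t distribution and the test against 0.5, and those called lower 0 with the 2-fold minimum and 2 against 0.5. Over all 16522 rows the calls numbered 6281, and 4950, 1501, 3476 and 1428 at the threshold of 0.01, with the 2-fold minimum, with the t distribution and against 0.5.

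Leaving out each library in turn gave values with no test, as log2 ratios of mean normalized counts. They ran from -8.41 to -7.43 for BCAT1, 0.50 to 0.57 for BCKDHB, 0.11 to 0.27 for BCKDHA, 0.06 to 0.12 for DBT, -0.16 to -0.07 for BCKDK, 0.08 to 0.19 for IVD, 0.03 to 0.18 for MCCC1 and 0.09 to 0.13 for MCCC2. BCAT2 ran from -0.1116 to 0.0167, and its sign turned without knockout library 2 (0.0167). HIBCH ran from -0.0924 to 0.0699, and its sign turned without knockout library 1 (0.0699) or 4 (0.0099) and without parental library 1 (0.0541) or 2 (0.0155). No paired analysis was possible because the libraries read back carry no replicate number. Refits in edgeR and calls without a library were not run, since they need reads of all genes. Depth limits BCAT1 in knockout libraries, where 6 reads in all set the size of the fold.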
